A study of Mus musculus with 45 samples.

Results

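The genes described here are 130 autosomal genes whose transcripts were near 0 in the islets of CAST/EiJ mice and present in the islets of C57BL/6J or NZO/HlLtJ mice. They were picked by level from the deposited gene matrix of 22904 genes, of which 22073 lie on chromosomes 1 to 19. Each library's counts were divided by its total to give CPM, counts per 1000000 counts. A gene was taken when its median was under 0.1 CPM over the CAST/EiJ libraries used and at least 1 CPM over all C57BL/6J or all NZO/HlLtJ libraries, and 3 genes of the interferon response (Mndal, Ifi202b and Mx1) were set aside. The difference between CAST/EiJ and the other strains is therefore how the genes were chosen and is given below without a test. Tests are given only for diet, for sex, and for genes that are not among the 130.

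The libraries were bulk RNA from pancreatic islets, the clusters of hormone-secreting cells in the pancreas, taken at 16 weeks of age. From 6 weeks on the mice ate a diet of 10% or of 44% fat, and each diet contained fiber. CAST/EiJ is an inbred strain derived from wild castaneus mice, NZO/HlLtJ (New Zealand Obese) becomes obese and is prone to diabetes, and C57BL/6J is widely used in laboratories. All were labelled wild type with no other treatment. Strain, sex and diet divided the 45 libraries into 12 groups of 4, except for groups of 3 in CAST/EiJ males on 10% fat and in NZO/HlLtJ males on either diet. The labels do not say that the libraries of a group came from separate mice, and the p-values cover only the spread among the libraries themselves.

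Totals ran from 57203765 to 109950221 counts per library. Replicates 1, 2 and 4 of CAST/EiJ females on 44% fat were left out of the rule because they hold transcripts of another strain, so that 12 CAST/EiJ libraries were used and replicate 3 alone stood for that group. Earlier results of these data also placed transcripts of another strain in C57BL/6J female 44% fat replicate 2 and NZO/HlLtJ male 44% fat replicate 3. Counts without those 2 libraries are given beside the results. In bulk RNA, fewer cells of a type and less RNA per cell cannot be told apart.

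As background, several kinds of gene in this set are known to differ between mouse strains. Processed pseudogenes are copies of messenger RNAs pasted back into the genome, and reads from such a copy can match the parent gene as well. Interferons are the secreted signals that cells use against viruses and intracellular microbes. They induce the immunity-related GTPases (Iigp1, Tgtp2), the guanylate-binding proteins (Gbp2b, Gbp10) and the oligoadenylate synthetase Oas3. They also induce the chemokine Cxcl9 and some of the Trim proteins. These families often lie in clusters of recent gene copies.

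Coding stretches of members and their closest genes are shown first so that members can be compared with genes that share their sequence. They come from the reference transcripts of GENCODE M21 (C57BL/6J genome, build GRCm38), run 5′ to 3′, and are counted from the first base of the start codon. Capitals mark the bases that differ within a pair. Gm10175, a pseudogene at chr7:23946646-23947290, matched all 438 coding bases of Atp5g2, a gene for a subunit of ATP synthase, and Mrpl23-ps1 at chr2:74591330-74591909 matched all 438 coding bases of Mrpl23, which encodes a mitochondrial ribosomal protein.
Gm10175, bases 1 to 60: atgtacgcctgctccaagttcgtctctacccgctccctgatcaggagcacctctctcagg
Atp5g2, bases 1 to 60: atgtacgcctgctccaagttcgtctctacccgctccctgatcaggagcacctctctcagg
Mrpl23-ps1, bases 1 to 60: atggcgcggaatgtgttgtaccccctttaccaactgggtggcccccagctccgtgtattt
Mrpl23, bases 1 to 60: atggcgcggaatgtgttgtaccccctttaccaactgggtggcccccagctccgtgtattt
Tgtp2 and Tgtp1, a pair of GTPase genes on chromosome 11, differed at 4 of 1245 coding bases. Gm11273 and Cox5b, a gene for a subunit of cytochrome c oxidase, differed at 3 of 387.
Tgtp2, bases 681 to 740: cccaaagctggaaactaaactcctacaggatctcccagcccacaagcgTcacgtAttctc
Tgtp1, bases 681 to 740: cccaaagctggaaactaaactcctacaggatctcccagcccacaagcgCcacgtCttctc
Gm11273, bases 189 to 248: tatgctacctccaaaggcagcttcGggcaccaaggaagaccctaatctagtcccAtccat
Cox5b, bases 189 to 248: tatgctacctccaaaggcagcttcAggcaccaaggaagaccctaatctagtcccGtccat
The neighbouring genes 9930111J21Rik1 and 9930111J21Rik2, both members, differed at 11 of 2532 coding bases.
9930111J21Rik1, bases 1248 to 1307: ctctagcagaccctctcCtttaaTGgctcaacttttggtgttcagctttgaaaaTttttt
9930111J21Rik2, bases 1248 to 1307: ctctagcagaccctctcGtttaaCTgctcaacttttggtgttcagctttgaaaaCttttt

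Upstream stretches are shown for 4 interferon-inducible members that hold a motif of interferon-stimulated genes. Each gives the 250 bases before a RefSeq start (GRCm38.p6) on the strand of the gene, 5′ to 3′, and capitals mark a match to GAAANNGAAA or its reverse complement TTTCNNTTTC, the spacing of the interferon-stimulated response element.
Tgtp2, chr11:49064213-49064462, minus strand: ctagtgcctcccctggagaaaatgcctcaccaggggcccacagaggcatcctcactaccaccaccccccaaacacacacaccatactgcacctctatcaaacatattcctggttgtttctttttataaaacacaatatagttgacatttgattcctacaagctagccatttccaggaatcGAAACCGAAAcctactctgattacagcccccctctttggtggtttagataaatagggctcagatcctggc
Oas3, chr5:120777660-120777909, minus strand: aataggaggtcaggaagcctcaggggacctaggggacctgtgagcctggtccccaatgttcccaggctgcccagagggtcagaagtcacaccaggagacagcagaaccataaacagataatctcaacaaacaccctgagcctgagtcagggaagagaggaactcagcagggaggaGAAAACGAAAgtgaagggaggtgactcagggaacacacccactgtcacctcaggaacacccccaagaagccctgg
Gbp2b, chr3:142594597-142594846, plus strand: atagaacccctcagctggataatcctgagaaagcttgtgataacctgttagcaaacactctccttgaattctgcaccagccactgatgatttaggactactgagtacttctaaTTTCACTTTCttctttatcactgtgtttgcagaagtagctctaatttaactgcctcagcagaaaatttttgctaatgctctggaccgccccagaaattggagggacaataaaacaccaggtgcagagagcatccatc
Gm12250, chr11:58183593-58183842, plus strand: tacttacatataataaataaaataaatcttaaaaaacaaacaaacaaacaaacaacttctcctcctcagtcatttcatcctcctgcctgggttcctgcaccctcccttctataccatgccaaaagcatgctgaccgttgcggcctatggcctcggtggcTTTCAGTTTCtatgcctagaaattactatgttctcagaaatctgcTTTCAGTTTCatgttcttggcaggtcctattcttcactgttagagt
RefSeq promoters of 300 bases (250 before and 50 after the start) were matched for 83 of the 130 genes, which had 108 promoters. The motif was found on either strand in 11 of these (10.2%), against 1131 of all 32851 mouse promoters of that length (3.44%). Of the 14 interferon-inducible members, 10 had a promoter in the table and 7 held the motif. The 4 other members with it were 4930550C14Rik, Clca3a1, Gm14085 and Gm13152. A match describes letters in this window and does not show a site in use.

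The 130 genes fell into 4 patterns by their median levels in the other strains. In both C57BL/6J and NZO/HlLtJ, 49 genes (37.7%) reached 1 CPM, and 56 (43.1%) reached it in 1 strain and lay between 0.1 and 1 CPM in the other. A further 17 (13.1%) were under 0.1 CPM in C57BL/6J too and are called present in NZO/HlLtJ alone. Another 8 (6.15%) are called present in C57BL/6J alone. Both names go by the median and do not mean absence from every library of the other strain. Of the 130, 74 reached 1 CPM in C57BL/6J and 105 in NZO/HlLtJ, and 87 (66.9%) had the higher median in NZO/HlLtJ.

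Genes present in C57BL/6J alone included Lefty1, an antagonist of Nodal signalling at chr1:180935022-180938400. Lefty1 ranged from 4.08 to 9.13 CPM (median 5.87) over 16 C57BL/6J libraries, from 0 to 0.0781 over 14 NZO/HlLtJ libraries and from 0 to 0.0718 over the 12 CAST/EiJ libraries. The C57BL/6J libraries did not overlap the rest. Trim12a, an interferon-inducible Trim gene at chr7:104299894-104315466, ranged from 2.5 to 4.18 CPM in C57BL/6J, from 0 to 0.245 in NZO/HlLtJ and from 0 to 0.0531 in CAST/EiJ. The histone H4 gene Hist1h4m was read at 1 to 4.67 CPM in every C57BL/6J library and at 0 in all NZO/HlLtJ and used CAST/EiJ libraries. Hamp2, a hepcidin gene, ranged from 0.0307 to 11.7 CPM (median 2.08) between C57BL/6J libraries. The other 4 were Rpl28-ps1, Gm14085, Gm13152 and RP23-137A24.3.

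Genes present in NZO/HlLtJ alone included the histone H2A gene Hist2h2aa2 at chr3:96239749-96240276. Hist2h2aa2 ranged from 23.9 to 54.1 CPM (median 48.2) in NZO/HlLtJ, from 0.00911 to 0.876 (median 0.0467) in C57BL/6J and from 0.0157 to 0.333 (median 0.0529) in CAST/EiJ, so that NZO/HlLtJ did not overlap the other strains. The 0.876 CPM came from C57BL/6J female 44% fat replicate 2 and the 23.9 CPM from NZO/HlLtJ male 44% fat replicate 3. These are the 2 libraries with transcripts of another strain. Among the others of this pattern were Gm10259, Bglap3 (an osteocalcin-family gene), Gbp2b, Csn3 (kappa casein), Cxcl9, Ces1c (a carboxylesterase), Gm9855, Wfdc18, Krt17 (a keratin), Gm11710, BC018473, Card14, Akr1c20, Aqp5 (a water channel) and Gm4841. Some of them were read in single C57BL/6J libraries. Cxcl9 had 156 counts in C57BL/6J male 44% fat replicate 3, and Bglap3 had 63 in female 10% fat replicate 3.

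Members at 1 CPM or more in both other strains included Olfm4, a secreted glycoprotein of gut stem cells and neutrophils, and Crb1, a cell polarity gene. Olfm4 ranged from 11.8 to 29.5 CPM (median 15.1) in C57BL/6J, from 2.15 to 16.9 (median 9.22) in NZO/HlLtJ and from 0 to 0.106 in CAST/EiJ. Crb1 ranged from 8 to 17.9 CPM in C57BL/6J, from 5.37 to 14.1 in NZO/HlLtJ and from 0 to 0.328 in CAST/EiJ. Fam213b, which encodes a prostamide synthase, had medians of 8.59 and 7.7 CPM in these strains and was at 0 in each of the 12 CAST/EiJ libraries.

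**Figure D1:**
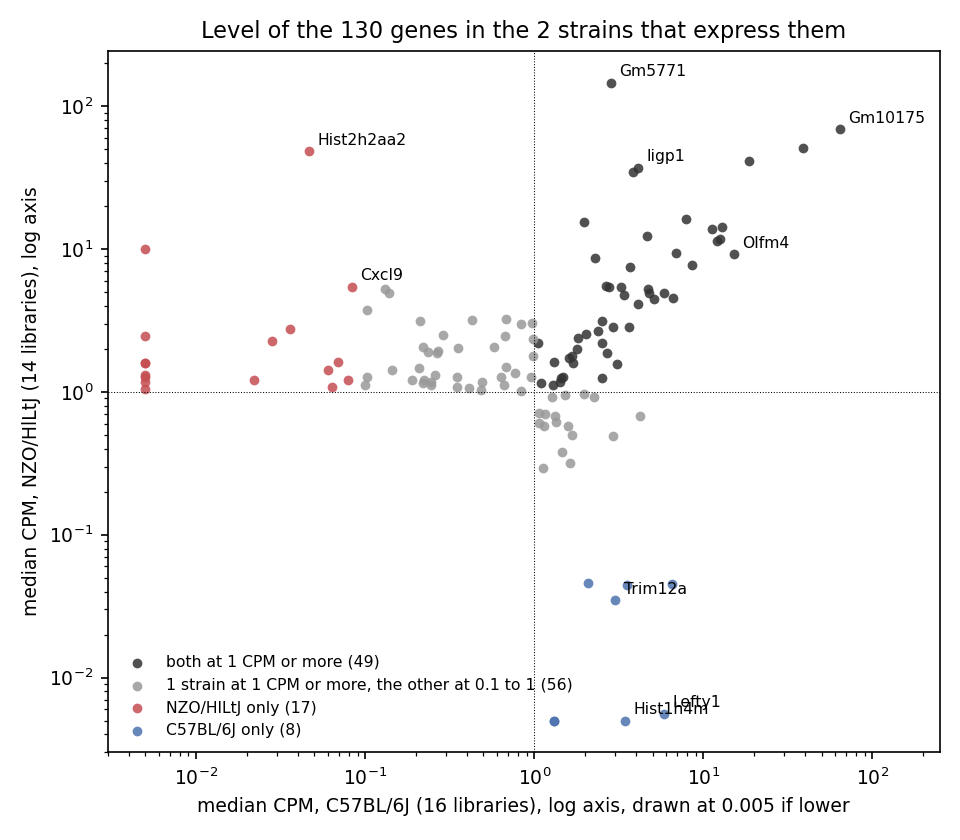
Median CPM of the 130 genes in C57BL/6J (x axis) and NZO/HlLtJ (y axis), both on log scales, with 1 point per gene, coloured by pattern, and dotted lines at 1 CPM. Genes under 0.1 CPM on the x axis are the 17 present in NZO/HlLtJ alone, and those under 0.1 CPM on the y axis are the 8 present in C57BL/6J alone.

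Most of the 130 genes stayed low in each CAST/EiJ library used, and the exceptions came from few libraries. The highest of the 12 libraries was under 1 CPM for 122 genes and under 0.1 CPM for 51, and 9 genes were at 0 in all 12. Genes with at most 3 counts in every one of these libraries numbered 21. CAST/EiJ male 10% fat replicate 3 held 7 members at 1 CPM or more: the secreted phospholipase Pla2g2d (15.4 CPM), the DNase Dnase1l3 (6.07), Gbp2b (2.62), the macrophage lectin Clec10a (1.81), the interleukin-2 receptor chain Il2rb (1.81), the T cell adhesion molecule Cd2 (1.61) and the vascular addressin Madcam1 (1.32). In the same library 10 lymphocyte markers summed to 80.1 CPM and 10 macrophage markers to 382 CPM. CAST/EiJ male 44% fat replicate 1 held Dnase1l3, Il2rb and Cd2 at 1 CPM or more, with lymphocyte markers at 63.9 CPM, and CAST/EiJ female 10% fat replicate 4 held Reg3g at 1.29 CPM. Without male 10% fat replicate 3, 126 genes stayed under 1 CPM and 54 under 0.1 CPM.

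Summed over the 130 genes, the used CAST/EiJ libraries reached 4.45 to 13 CPM apart from 39.4 in male 10% fat replicate 3. C57BL/6J libraries reached 302 to 493 CPM and NZO/HlLtJ libraries 492 to 9280 CPM. The sums were highest in NZO/HlLtJ males on 44% fat. There the epithelial and exocrine members gave 2790 to 8240 CPM, nearly all from the single gene Gm5771. In the 3 CAST/EiJ libraries left out by the rule, the 74 genes at 1 CPM or more in C57BL/6J stood at a median of 11.4%, 4.31% and 4.76% of their C57BL/6J level in replicates 1, 2 and 4. The 8 genes present in C57BL/6J alone stood at 12.4%, 0.473% and 3.63% of that level, and the 17 present in NZO/HlLtJ alone at 0.226%, 1.98% and 0.0566% of their NZO/HlLtJ level. The genes of C57BL/6J pattern were thus read at higher shares in replicates 1 and 4, and those of NZO/HlLtJ pattern in replicate 2. In the used libraries the same medians reached 0.64% for the C57BL/6J pattern (male 10% fat replicate 3). They reached 1.31% for the NZO/HlLtJ pattern (male 44% fat replicate 3). Replicate 2 lay within the used libraries for the first pattern and only a little above them for the second.

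**Figure D2:**
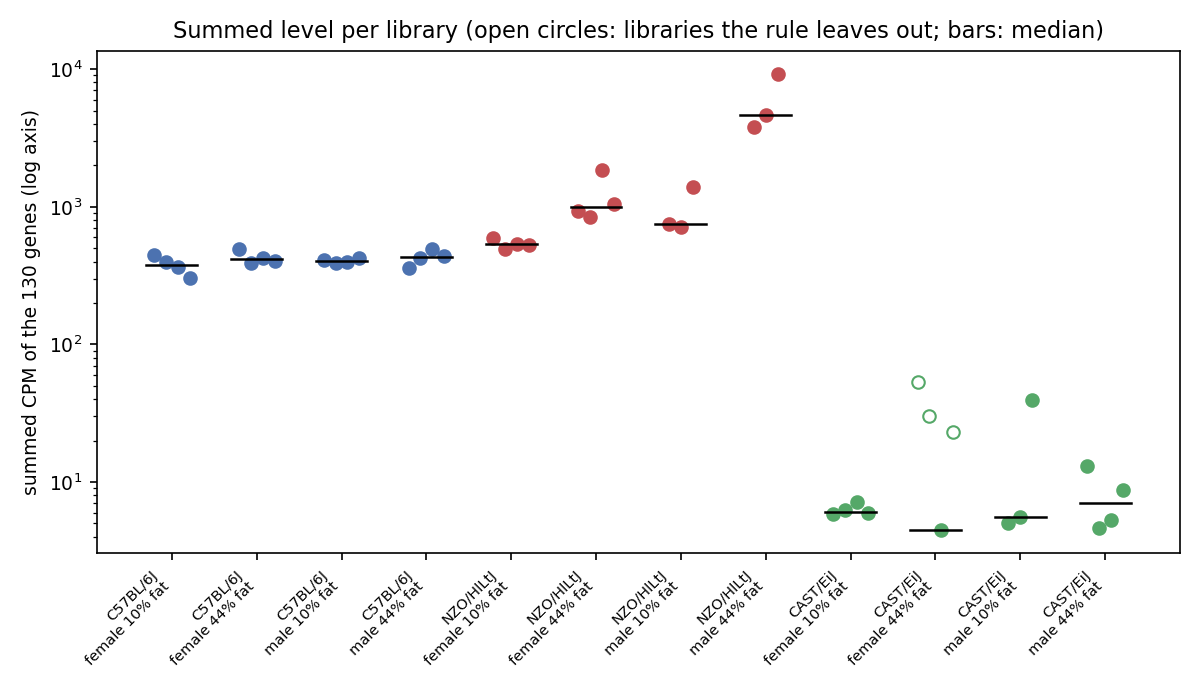
Summed CPM of the 130 genes in each of the 45 libraries, on a log axis, by strain, sex and diet, with the 3 CAST/EiJ libraries that the rule leaves out as open circles and the median of the others as a bar. The used CAST/EiJ libraries lie at 4.45 to 13 CPM with 1 at 39.4, and the NZO/HlLtJ males on 44% fat lie at 3810 to 9280. Most of the CPM in those males came from the single gene Gm5771.

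Values near both thresholds show how the set ends. Just inside the CAST/EiJ threshold were Rnaset2a (0.0995 CPM), Reg3g (0.0983) and Oas3 (0.0982), and just outside were Itih1 (0.1), Slfn8 (0.101) and Pcdhb1 (0.103). Just inside the level threshold were Syce1 (1.01), Fgb (1.03) and Gbp2b (1.04), and just outside Hist2h3c1 (0.999), Rpgrip1 (0.999) and Gm1976 (0.997).

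By kind, protein-coding genes made up 85 of the 130 (65.4%), long non-coding RNAs 26 (20%) and pseudogenes 14 (10.8%). Among all 13787 autosomal genes with a median of at least 1 CPM in C57BL/6J or NZO/HlLtJ, these shares were 93.4%, 4.06% and 1.1%. Genes known only by a predicted or clone name were 63 of the 130 (48.5%) against 9.02%. Genes of interferon-inducible families, found by symbol with every Trim gene included, were 7 (5.38%) against 0.631%. Genes with a symbol that begins with Zfp, Zscan or Zkscan, as many zinc finger genes have, were 0 against 2.56%. Zinc finger genes under predicted or clone names could not be found this way, so the 0 does not show that the set lacks them. The member Gm3604, for example, was 90.7% identical to Zfp934 where they aligned. The annotation rests on the C57BL/6J genome.

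Some members had a nearly identical gene, nearby or on another chromosome, and some of these genes had higher counts in CAST/EiJ. At 90% identity or more over at least 50% of a transcript, 46 of the 130 had such a gene, and at 99% over at least 90%, 30 did, among them 12 pseudogenes. The share of all expressed genes with such a gene was not counted, so these numbers do not set the members apart. For 7 of the 30 the closest gene was itself a member. The closest genes of the other 23 were tested between CAST/EiJ and C57BL/6J on 10% fat with edgeR's quasi-likelihood test: 11 were higher and 5 lower in CAST/EiJ, where 23.4% of all 21242 genes tested were higher and 21.3% lower. The sum of a member and its near-identical genes lay within 0.67 to 1.5 times the C57BL/6J sum for 15 of the 23. In several of these the member was a small part of the C57BL/6J sum, so its lack could hardly move the sum. Examples were Rpl28-ps1 (1.3 of 162 CPM), Gm9531 (1.61 of 113) and Hist2h2aa2 (0.0467 of 120). The count therefore does not show where the reads of the members went.

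Atp5g2, the closest gene of Gm10175, went from a median of 4.95 CPM in C57BL/6J to 77.6 in CAST/EiJ (log2 difference 4.02, SE 0.144, adjusted p = 8.84e-23). Gm10175 itself ranged from 44.4 to 87.1 CPM in C57BL/6J and from 65 to 78.8 in NZO/HlLtJ, and reached at most 0.169 in CAST/EiJ. Gm10175 and its 2 near-identical genes, Atp5g2 among them, summed to 1.11 times the C57BL/6J level. The coding stretches printed above do not differ between Gm10175 and Atp5g2. Mrpl23 went from 0.727 to 15.3 CPM (log2 difference 4.33, SE 0.248, adjusted p = 7.19e-17), beside 12.9 CPM of Mrpl23-ps1 in C57BL/6J, and this pair also summed to 1.11 times. Sec61g, which encodes a subunit of the protein translocation channel, went from 17.4 to 56 CPM (log2 difference 1.95, SE 0.124, adjusted p = 1.23e-15) beside 39 CPM of Gm10177, and their sum was 0.999 times the C57BL/6J level. Cycs, the gene of cytochrome c, rose from 41.5 to 65.7 CPM (log2 difference 0.74, SE 0.109, adjusted p = 6.78e-07) beside 18.6 CPM of Gm10053. No source used here states whether the authors' counting allowed for strain variants, and how far the split of reads between such genes follows the variants of each strain was not tested.

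Sums for other members and their near-identical genes lay below that range. Tmem254a was lower in CAST/EiJ (11.2 CPM in C57BL/6J, 7.89 in CAST/EiJ, log2 difference -0.51, SE 0.102, adjusted p = 9.03e-05 by edgeR). Tmem254b (11.2 CPM in C57BL/6J) and its 2 near-identical genes, Tmem254a among them, summed to 0.33 times the C57BL/6J level. Tgtp1 was at 2.65 CPM in C57BL/6J and 1.95 in CAST/EiJ (adjusted p = 0.305), and with Tgtp2 the sum was 0.271 times. Rnaset2b, the closest gene of the ribonuclease gene Rnaset2a, fell in CAST/EiJ (log2 difference -0.75, SE 0.0973, adjusted p = 5.45e-08), and the pair summed to 0.581 times. Sums within the range could also come with shifts between the other strains. Hist2h2aa1 stood at 72.4 CPM in C57BL/6J and 72.8 in CAST/EiJ (adjusted p = 0.772) but at 2.6 in NZO/HlLtJ, where the otherwise low Hist2h2aa2 was at 48.2, and the coding bases of these histone genes do not differ in the reference. With all near-identical genes their sum was 0.823 times the C57BL/6J level. Gm7334 had 3.85 CPM in C57BL/6J and 34.6 in NZO/HlLtJ, while its closest gene Btg3, an antiproliferative gene, had 76.9, 29.9 and 63 CPM in C57BL/6J, NZO/HlLtJ and CAST/EiJ, and this pair summed to 0.776 times. Gm5771, a gene of the trypsin family at chr6:41392356-41397230, was 97.4% identical to Prss1, which stood at 0.309, 63.1 and 104 CPM in C57BL/6J, NZO/HlLtJ and CAST/EiJ.

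**Figure D3:**
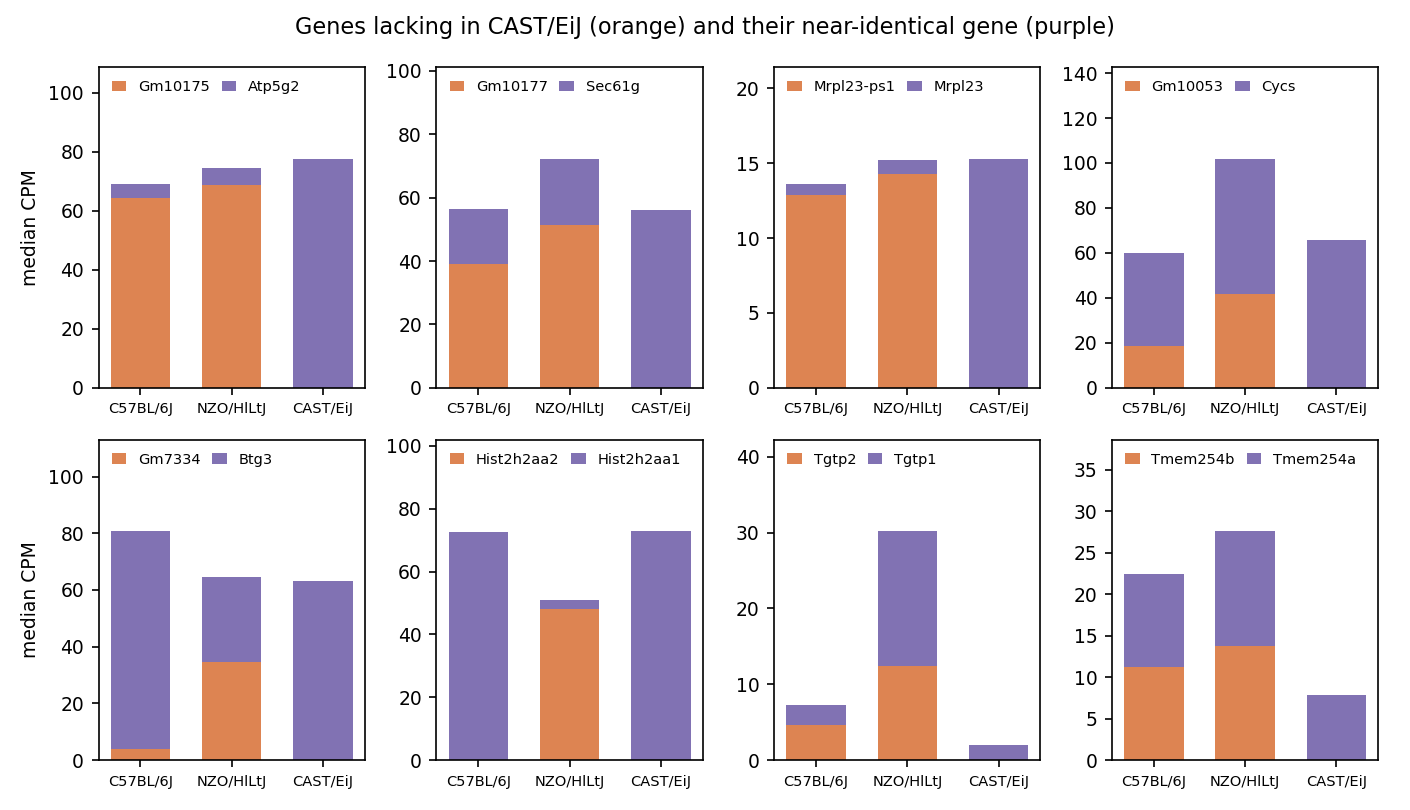
Stacked median CPM (linear axes from 0) of 8 members (orange) and of the closest gene of each (purple) in C57BL/6J, NZO/HlLtJ and CAST/EiJ, with no error bars. In CAST/EiJ the orange part is under 0.1 CPM throughout, while Atp5g2 reaches 77.6 CPM from 4.95 in C57BL/6J and Tmem254a is at 7.89 from 11.2.

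Some members lay beside each other. Within 1 Mb, 14 runs of 2 or more members were found. How many runs the same number of other expressed genes would form was not counted. In the run of Fam213b and 5830444B04Rik, 2 of the 11 genes at 1 CPM or more in C57BL/6J or NZO/HlLtJ were members. On chromosome 2, between 175422300 and 176719085, 6 of the 12 genes at 1 CPM or more in C57BL/6J or NZO/HlLtJ were members: Gm4724, Gm8923, 2210418O10Rik, Gm14434, Gm14308 and Gm14306, all in a stretch of near-identical copies. Of the others there, Gm14288 had 10.5 CPM in C57BL/6J and 9.73 in CAST/EiJ, Gm6710 had 2.68 and 6.33, and Gm8898 had 8.41 and 0.804, so levels within this stretch differed in both directions. On chromosome 11, 9930111J21Rik1, 9930111J21Rik2 and Tgtp2 lay between 48946150 and 49064206, with Tgtp1 the only other gene at that level there. Gm12185 in the same run had 0.176, 0.768 and 2.16 CPM in C57BL/6J, NZO/HlLtJ and CAST/EiJ, and Psme2b had 0.575, 0.951 and 0. Gm4841, Iigp1 and BC023105 were the only genes of their run on chromosome 18 at 1 CPM or more in C57BL/6J or NZO/HlLtJ. F830016B08Rik between them had 0.157, 0.551 and 0 CPM in the 3 strains. Trim12a and Trim30d lay beside Trim30a (3.52 CPM in C57BL/6J, 1.07 in CAST/EiJ), Trim34a (6.85 and 2.07) and Trim12c (6.76 and 1.28). Trim34b in that run was higher in CAST/EiJ by edgeR's test, from 0.0128 to 0.148 CPM (log2 difference 3.16, SE 0.537, adjusted p = 7.55e-06).

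The nearest genes tested on each side that were not members, many of them at low levels, were compared in the same way. Of 247 such neighbours, 75 (30.4%) were lower and 48 higher in CAST/EiJ than in C57BL/6J on 10% fat, and within 100 kb 59 of 198 (29.8%) were lower, against 21.3% of all genes. At 63 members neither neighbour was lower, and at 14 both were. Fam213b is an example of the former. Its neighbour Tnfrsf14 had 2.15 CPM in C57BL/6J and 1.76 in CAST/EiJ (log2 difference -0.24, adjusted p = 0.185 by edgeR), and Mmel1, near 0, had 0.0418 and 0.07 (1.37, adjusted p = 0.00404 by edgeR).

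Between 44% and 10% fat in NZO/HlLtJ, averaged over the sexes, all 7 interferon-inducible members that the rule took by their C57BL/6J level rose, while the share of risers among all members taken that way was close to that of all genes. The rule pools the diets and sexes of a strain, but 56 of the 130 genes reached 1 CPM in NZO/HlLtJ alone and could enter through libraries in which 44% fat or male sex raised them. For these genes diet and sex in NZO/HlLtJ are not independent of the rule, and their differences are given as a description without a p-value. The other 74 reached 1 CPM in C57BL/6J, so that the rule did not need their NZO/HlLtJ level. Among their 7 interferon-inducible members, Trim12a had at most 19 counts in an NZO/HlLtJ library, in male 44% fat replicate 3. Tgtp2, 9930111J21Rik1 and 9930111J21Rik2 lie in 1 run, and Trim12a and Trim30d in another. The 7 are therefore not treated as independent of each other.

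Of these 74, 15 (20.3%) rose and 4 (5.41%) fell, where 19.9% of all 19721 genes tested rose and 13.9% fell (edgeR's quasi-likelihood test on the C57BL/6J and NZO/HlLtJ libraries, adjusted p under 0.05). Beside the 7 interferon-inducible members, 1 of 2 immune cell, 1 of 4 epithelial and exocrine, 0 of 3 metabolism and transport and 1 of 3 secreted or matrix members rose. These role lists were drawn up with values of these data known. Without the 2 libraries with transcripts of another strain, 12 rose and 4 fell. Leaving out NZO/HlLtJ male 44% fat replicate 2 or male 10% fat replicate 3 gave 8 that fell, and leaving out male 44% fat replicate 1 gave 7. Over all 130 genes 51 (39.2%) passed as higher and 5 (3.85%) as lower, counts from which nothing is read because the rule could favour them.

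Iigp1, an immunity-related GTPase of the vacuoles that hold microbes, was one of the members that rose. In NZO/HlLtJ females on 10% fat it stood at 13, 3.44, 6.84 and 5.12 CPM in replicates 1 to 4 and on 44% fat at 160, 5.32, 7.23 and 33.3. Males on 10% fat had 98.5, 40.9 and 98.6 CPM, and males on 44% fat 195, 133 and 164. The males did not overlap between diets, while the females on 44% fat ranged from the 10% fat level to near the highest of the males. The difference between diets was 2.09 on the log2 scale (SE 0.52, adjusted p = 0.00344), and 1.28 (adjusted p = 0.0124) without replicate 1 of the females on 44% fat. In C57BL/6J, Iigp1 stayed between 2.22 and 11.1 CPM over both diets, and in CAST/EiJ it reached at most 0.0262.

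Oas3, which makes the oligoadenylates that activate RNase L, had 0.136, 0.155, 0.268 and 0.203 CPM in NZO/HlLtJ females on 10% fat and 2.7, 0.308, 0.485 and 1.66 on 44% fat. Males had 0.905, 1.26 and 1.64 CPM on 10% fat and 6.62, 7.86 and 12 on 44% fat. Within each sex the diets did not overlap, and the log2 difference was 2.93 (SE 0.356). Oas3 and Cxcl9 are among the members that reached 1 CPM in NZO/HlLtJ alone. Cxcl9, a chemokine that draws T cells, had 1.02, 0.0819, 0.424 and 0.107 CPM in females on 10% fat and 20, 0.154, 1.27 and 5.23 on 44% fat. Males had 6, 5.69 and 12.9 CPM on 10% fat and 27, 21.9 and 63.8 on 44% fat. As for Iigp1, the diets overlapped in females and not in males (log2 difference 3.28, SE 0.792).

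Tgtp2, whose sequence is printed above, had 3.93, 2.21, 2.67 and 2.13 CPM in females on 10% fat and 37.1, 2.15, 2.52 and 10.8 on 44% fat. Males had 19.3, 14 and 17.7 CPM on 10% fat and 57, 37.9 and 60.1 on 44% fat. As with Iigp1, replicate 1 of the females on 44% fat lay near the males on that diet, and replicates 2 and 3 near the females on 10% fat (log2 difference 2.08, SE 0.43, adjusted p = 0.00073). The other members taken by their C57BL/6J level rose by 0.84 (9930111J21Rik2) to 3.34 (Trim12a) on the log2 scale, and Trim12a stayed at or below 0.245 CPM in NZO/HlLtJ. All 7 rose under each alternative setting and without each library in turn. The sum of all 14 interferon-inducible members was 27.9 to 51 CPM in females and 111 to 193 in males on 10% fat, and 28.6 to 318 and 312 to 470 on 44% fat, beside 20.7 to 49.2 over all C57BL/6J libraries. This sum includes members that reached 1 CPM in NZO/HlLtJ alone. It is therefore not independent of the rule, and nothing is read from its differences by diet, sex or strain.

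Other genes of interferon-inducible families, found by symbol and not members, numbered 103, and 56 of them rose with 44% fat in NZO/HlLtJ and 7 fell. The symbols took in every Trim gene, whether or not interferon induces it. Markers of immune cells moved with the same diet. All 10 macrophage markers and 9 of 10 lymphocyte markers rose. The macrophage sum was 61.4 to 75.5 CPM in females and 83.7 to 242 in males on 10% fat, and 138 to 206 and 494 to 820 on 44% fat. The lymphocyte sum was 1.65 to 4.17 and 2.97 to 8.06 CPM on 10% fat, and 2.84 to 20.4 and 24.4 to 80.1 on 44% fat. No marker of either list was at 0 in all NZO/HlLtJ libraries, none of these markers is a member, and their part in the difference of the members was not tested.

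**Figure D4:**
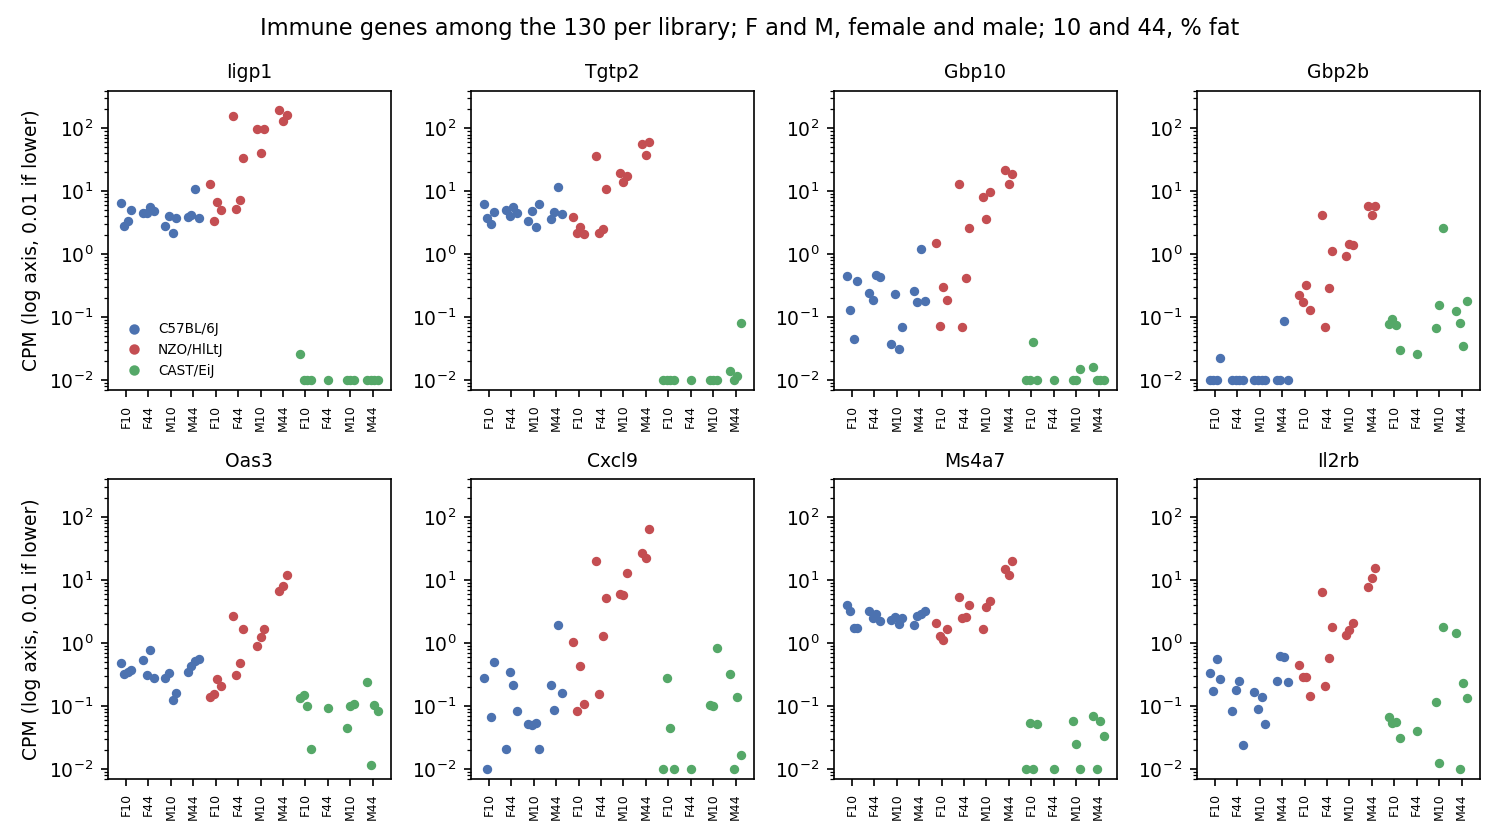
CPM per library (log axes, values under 0.01 drawn at 0.01) of Iigp1, Tgtp2, Gbp10, Gbp2b, Oas3, Cxcl9, Ms4a7 and Il2rb, by strain (colour), sex and diet, without the 3 CAST/EiJ libraries the rule leaves out. Each point is 1 library, and Iigp1 in NZO/HlLtJ runs from 3.44 to 13 CPM in females on 10% fat to 133 to 195 in males on 44% fat.

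Among immune cell members, Ms4a7 and Pla2g2d were taken by their C57BL/6J level. Ms4a7, a membrane protein of macrophages, had 2.05, 1.28, 1.12 and 1.66 CPM in NZO/HlLtJ females on 10% fat, 5.42, 2.46, 2.58 and 3.98 on 44% fat, and in males 1.68, 3.67 and 4.68 on 10% fat and 14.9, 12.1 and 20.1 on 44% fat. The diets did not overlap within either sex (log2 difference 1.89, SE 0.208, adjusted p = 9.99e-07). Pla2g2d did not pass (log2 difference -0.23, adjusted p = 0.206). Of the members that reached 1 CPM in NZO/HlLtJ alone, the lectin gene Clec10a had a log2 difference of 2.85 (SE 0.445), the cytokine receptor gene Il2rb of 2.99 (SE 0.509), Dnase1l3 of 2.77 (SE 0.485) and the lymphocyte gene Cd2 of 1.26 (SE 0.48).

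Epithelial and exocrine members spanned the widest range of levels. Gm5771 had 1.88, 2.35, 0.248 and 0.264 CPM in NZO/HlLtJ females on 10% fat and 51, 240, 1240 and 385 on 44% fat. Males had 21, 32.7 and 564 CPM on 10% fat and 2700, 3730 and 8080 on 44% fat. The diets did not overlap within either sex, and the log2 difference was 6.73 (SE 1.08, adjusted p = 7.09e-05). In C57BL/6J Gm5771 ranged from 0.64 to 19.4 CPM. Csn3 and Wfdc18, a small protease-inhibitor-like protein, reached 1 CPM in NZO/HlLtJ alone, with log2 differences of 3.93 (SE 0.719) and 2.52 (SE 0.446), and Csn3 was at most at 0.127 CPM in females on 10% fat. Reg3g, an antimicrobial lectin, did not pass (log2 difference 2.52, SE 0.988, adjusted p = 0.0528). Acinar cells make the pancreas's digestive enzymes, and none of 12 acinar markers passed for diet in NZO/HlLtJ (median log2 difference 1.06). Their sum was 13500 to 64500 CPM in NZO/HlLtJ females over both diets, 31500 to 40800 in males on 10% fat and 58700 to 119000 in males on 44% fat. Of 7 fibroblast and stellate cell markers 7 rose, of 7 endothelial markers 5 and of 7 duct cell markers 4, and their part was not tested. With an acinar score in the model, 13 of the 74 members rose and 4 fell.

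Olfm4 fell with 44% fat in NZO/HlLtJ. It had 11.5, 8.5, 13.5 and 13.3 CPM in females on 10% fat, 11.2, 8.3, 6.99 and 9.94 on 44% fat, and in males 16.9, 12 and 5.51 on 10% fat and 6.55, 3.7 and 2.15 on 44% fat. The diets overlapped in both sexes (log2 difference -0.74). Pgbd1, a gene derived from a piggyBac transposase, had 2.36, 2.2, 3.09 and 2.15 CPM in females on 10% fat and 1.61, 0.873, 1.35 and 1.39 on 44% fat. Males had 2.51, 1.54 and 1.66 CPM on 10% fat and 1.19, 1.03 and 1.28 on 44% fat, so that both sexes separated by diet (log2 difference -0.63). Fam213b (-0.39) and the non-coding Gm16702 (-1.27) also fell. Olfm4 and Fam213b lost their call under an alternative setting, while Pgbd1 and Gm16702 kept theirs.

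In C57BL/6J the diet moved none of the 130 genes past the threshold with edgeR's quasi-likelihood test, beside 0.0101% of all genes higher and 0% lower. At an unadjusted p under 0.05, 6 members were higher and 2 lower. DESeq2 called 0 as well, with 8 and 2 at an unadjusted p under 0.05. The interferon-inducible members had a median log2 difference of 0.28 there and ran from -0.07 to 1.53.

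The difference between the diet effects of the 2 strains was itself tested. Of the 74 members taken by their C57BL/6J level, the effect was higher in NZO/HlLtJ for 10 (13.5%) and lower for 4 (5.41%), beside 10.5% and 6.57% of all genes, so these shares were close to those of all genes. Among the 10 were 6 of 7 interferon-inducible members, all but Iigp1. Ms4a7 differed by 1.84, Gm5771 by 5.79 and Pgbd1 by -0.76 on the log2 scale. The count of higher members was 6 without NZO/HlLtJ male 10% fat replicate 1 or replicate 2 of that group, and 4 with library totals as the only scaling. Without the 2 libraries with transcripts of another strain 5 were higher and 2 lower, with 3 interferon-inducible members among them. NZO/HlLtJ male 10% fat replicate 1 and male 44% fat replicate 3 each took the lower count to 2. Over all 130 genes 23 (17.7%) passed as higher and 4 (3.08%) as lower, from which nothing is read.

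**Figure D5:**
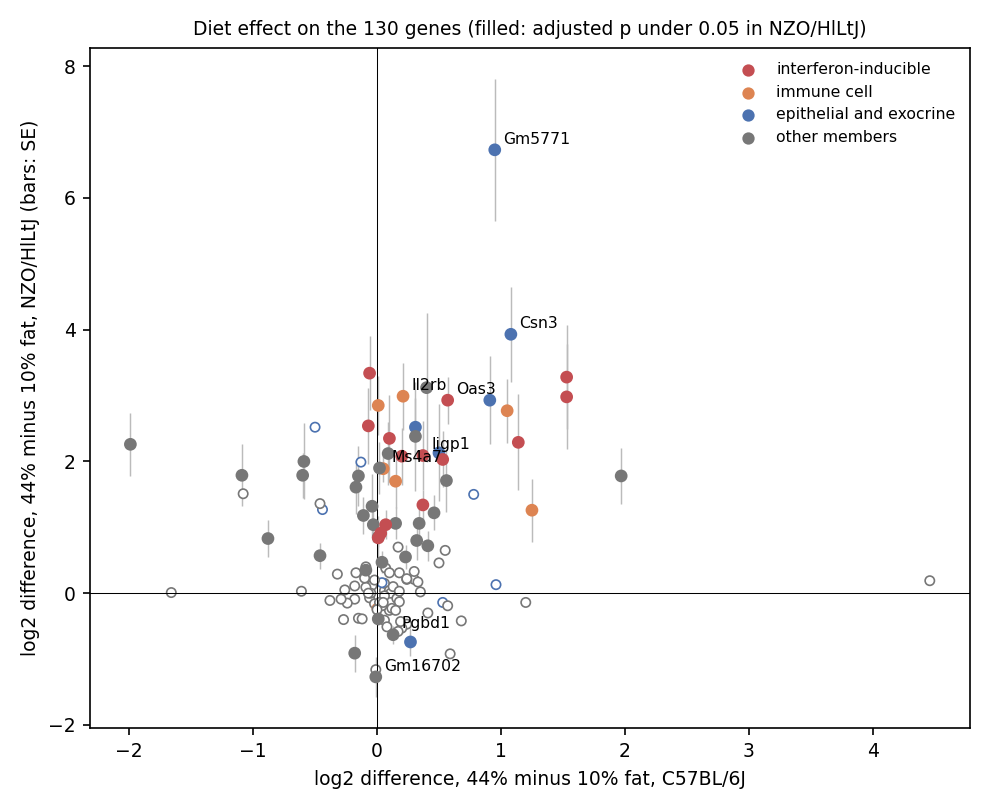
Log2 difference between 44% and 10% fat in C57BL/6J (x axis) and NZO/HlLtJ (y axis) for the 130 genes, coloured by role, filled where the adjusted p in NZO/HlLtJ was under 0.05, with bars for the SE of those. In NZO/HlLtJ 51 genes lie above and 5 below 0 with an adjusted p under 0.05, of which 15 and 4 were taken by their C57BL/6J level, and in C57BL/6J none passed. The rest of the filled genes reached 1 CPM in NZO/HlLtJ alone, and nothing is read from their calls.

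Members taken by their C57BL/6J level were called for sex in NZO/HlLtJ in no larger share than all genes. Of the 74 taken by their C57BL/6J level, males were higher than females, averaged over the diets, for 10 (13.5%) and lower for 4 (5.41%), beside 16.2% and 11.6% of all genes. The 10 held 7 of 7 interferon-inducible members, with a median log2 difference of 1.58, and 1 of 2 immune cell and 2 of 4 epithelial and exocrine members. Trim12a lost its call with library totals, with no filter, with all 45 libraries, without the 2 libraries with transcripts of another strain, with the number series or the acinar score, and without single libraries, which left 6 of 7. Iigp1 differed by 2.70, Tgtp2 by 2.41, Gm5771 by 5.49 and Reg3g by 3.23 on the log2 scale. Gm16702 (-1.48), 2210418O10Rik (-0.38), Gm12397 (-0.82) and Gm10451 (-0.60) were lower in males. Of the markers, 10 of 10 for macrophages and 8 of 10 for lymphocytes were also higher in NZO/HlLtJ males, as were 7 of 7 for fibroblasts and stellate cells, 5 of 7 for endothelium and 4 of 7 for ducts, while 5 of 10 for islet endocrine cells were lower, and their part was not tested. Without the 2 libraries with transcripts of another strain, 8 of the 74 were higher and 3 lower, and without NZO/HlLtJ male 44% fat replicate 2, 12 and 7. Over all 130 genes 39 (30%) passed as higher and 4 (3.08%) as lower, from which nothing is read.

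In C57BL/6J no member differed by sex with edgeR's quasi-likelihood test, beside 0.0456% of all genes higher and 0.203% lower in males. At an unadjusted p under 0.05, 7 members were higher and 8 lower, and DESeq2 called 0 higher and 1 lower.

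The diet effect also differed between the sexes of NZO/HlLtJ for 7 of the 74 members taken by their C57BL/6J level, higher in males for 2 (2.7%) and lower for 5 (6.76%), beside 4.77% and 3.51% of all genes. Over all 130 genes these counts were 2 (1.54%) and 8 (6.15%), from which nothing is read. Gm281 had 2.37, 1.76, 2.51 and 2.14 CPM in females on 10% fat and 3.89, 3.18, 3.94 and 4.96 on 44% fat. Males had 3.16, 3.36 and 3.15 CPM on 10% fat and 2.06, 2.26 and 0.5 on 44% fat, so that the diets separated in opposite directions (log2 difference of effects -1.99, adjusted p = 0.00581). Without NZO/HlLtJ male 44% fat replicate 3, Gm281 was the only one of all 10 still called, and without the 2 libraries with transcripts of another strain 1 member was called. Library names fall into number series, and within NZO/HlLtJ 1 series holds, of these mice, males on 44% fat together with females on 10% fat alone, and another holds the reverse, so this interaction and the series cannot be fully told apart. With the series as a factor 2 members were called for the interaction, while 16 of the 74 rose and 5 fell with diet.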

How the data were processed

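Islet RNA was made into poly(A)-selected libraries and read as 150-base pairs, per the labels' protocols. The deposited matrix holds estimated counts per gene and library, of which 19.4% were not whole numbers. The submitters' processing notes name DESeq2 and the GRCm38 build, and no source used here names the aligner or the counting tool. CPM were computed here from library totals (57203765 to 109950221 counts). The members, role lists, named genes and tests were chosen with earlier results of these data known.

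Estimated counts were rounded and tested with edgeR 4.0.16 in R 4.3.3 (quasi-likelihood, robust, TMM, low counts filtered by group). The main fit held the 30 C57BL/6J and NZO/HlLtJ libraries in 8 groups (19721 genes), because CAST/EiJ libraries with transcripts of another strain would set the spread of these genes. Neighbours and near-identical genes were tested with CAST/EiJ libraries included, without the 3 that the rule leaves out (21242 genes, 12 groups). P-values were adjusted over all genes tested by Benjamini-Hochberg. A gene's SE was taken as the size of its log2 difference over the root of its F statistic. Near-identical genes were found with blastn 2.17.0 among reference transcripts. Eligible to be named were up to 10 members per test by the smallest adjusted p, the 25 members of highest median, members within 1 Mb of another or under 0.1 CPM in C57BL/6J or NZO/HlLtJ too, members with a known role, and the 3 genes nearest either side of each threshold. Closest genes of members, and members that fell or lost a call, were named after their values were seen. The fits were tested on simulated data. Alternatives covered the thresholds, scaling, filter, DESeq2 1.42.0, number series, an acinar score and leaving out each library. Replicate numbers follow accession order and pair nothing. Counting diet and sex calls over the 74 members at 1 CPM or more in C57BL/6J was chosen after seeing the data. The values of 1 member are not reported here.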

Additional observations from a re-analysis of the deposited data

Results flagged for a closer look

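The summed level of the immune cell members (Cd2, Il2rb, Ms4a7, Clec10a, Pla2g2d, Dnase1l3 and Madcam1) stood apart in 1 of 24 checks of summed levels over groups of 4 libraries, in CAST/EiJ males on 44% fat, where replicate 1 reached 5.45 CPM and the group median was 0.569. About 1 in 20 checks is expected to show such a gap by chance. In that library the lymphocyte markers summed to 63.9 CPM.

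The diet effect differed between NZO/HlLtJ and C57BL/6J, by the interaction term, for the macrophage gene Ms4a7 (log2 difference of effects 1.84), the macrophage lectin gene Clec10a (2.84), the interferon-inducible genes Trim12a (3.41), Oas3 (2.36), 9930111J21Rik1 (0.88) and 9930111J21Rik2 (0.82), the trypsin-family gene Gm5771 (5.79), the cytochrome P450 gene Cyp2j5 (2.39), the transporter gene Slc22a18 (1.03) and Pgbd1 (-0.76). Clec10a, Oas3, Cyp2j5 and Slc22a18 reached 1 CPM in NZO/HlLtJ alone, so that their values there also chose them. Trim12a stayed at or below 0.245 CPM in NZO/HlLtJ, near the level of a few counts.

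The diet effect differed between the sexes of NZO/HlLtJ for 9930111J21Rik1 (1.08) and 9930111J21Rik2 (1.06), higher in males, and for Gm281 (-1.99), Gm7967 (-2.56), Gm31373 (-2.11), D630023F18Rik (-1.74), RP23-477O13.1 (-1.59), 4930550C14Rik (-1.11), Crb1 (-0.79) and Cc2d2b (-1.06), lower in males. Of these, Gm31373, D630023F18Rik and RP23-477O13.1 reached 1 CPM in NZO/HlLtJ alone. Gm7967 had 0.773, 0.819, 1.08 and 0.537 CPM in females on 10% fat, 0.578, 1.15, 0.618 and 2.03 on 44% fat, and in males 3.28, 3.93 and 2.29 on 10% fat and 1.54, 0.473 and 0.436 on 44% fat. Without NZO/HlLtJ male 44% fat replicate 3, 9 of the 10 lost the call and Gm281 kept it.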

How the results depend on the processing

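The number of members, 130, became 92 and 195 with a CAST/EiJ threshold of 0.05 and 0.2 CPM, 257 and 69 with a level threshold of 0.5 and 2 CPM, 51 when the highest CAST/EiJ library was used and 122 with all CAST/EiJ libraries. With TMM factors it was 135, and 127 of these were shared. Counts of NZO/HlLtJ calls over all 130 genes include genes that the rule could favour. Nothing is read from their size, and only their change between settings is given. Members called for diet in NZO/HlLtJ (56) ran from 43 to 61 when single libraries were left out and from 45 to 58 under the 8 other settings. Those called for sex in NZO/HlLtJ (43) ran from 37 to 46 and from 35 to 44. Members whose diet effect differed by strain (27) fell to 17 with all 45 libraries, 14 without the 2 libraries with transcripts of another strain and 13 with the acinar score, and ran from 14 to 34 when single libraries were left out. Members whose diet effect differed by sex in NZO/HlLtJ (10) became 5 with library totals, 17 with DESeq2, 3 with all 45 libraries, 1 without those 2 libraries and 2 with the number series, and ran from 1 to 13 when single libraries were left out. Sex in C57BL/6J (0) gave 1 with DESeq2 and 0 to 1 when single libraries were left out. Of the 74 members taken by their C57BL/6J level, 12 to 16 rose with diet in NZO/HlLtJ when single libraries were left out and 11 to 16 under other settings, and 9 to 12 and 8 to 12 were higher in males. Neighbours lower in CAST/EiJ (75) ran from 59, within 100 kb, to 81. The 57 log2 differences named had all passed in the main fit, so that calls could be lost but not gained. Fits without single libraries enter here only by their lowest and highest log2 difference. Of 570 values of these 57, 514 kept direction and call, 56 lost the call and 0 reversed. The causes were not tested. Depth limits the lowest members: 21 had at most 3 counts in each used CAST/EiJ library, where a level under 0.1 CPM cannot be ranked. No paired analysis was possible because replicate numbers follow accession order.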
